A study of Oryza sativa with 12 samples.

Results

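*OsNAC006* (LOC_Os01g09550, RAP locus Os01g0191300, on chromosome 1) was followed across the 4 groups of a microarray experiment on rice shoots. The gene was chosen by its probe, CUST_3320_Rice4x44kGene, which is 1 of the 42477 probes measured and the only one paired with this locus in the tables used here. The samples were shoots of the rice cultivar Tainung 67, labelled TNG67, and of transgenic Tainung 67 that overexpresses the ethylene-responsive factor gene *OsERF106MZ* from the cauliflower mosaic virus 35S promoter (OE). Seedlings of both genotypes were 7 days old when they were moved to medium with 0 mM NaCl (normal conditions) or 150 mM NaCl (NaCl-treated conditions), and the aerial parts were taken 24 h later. Each of the 4 groups had 3 arrays. The 35S promoter is active in most tissues of the plant, and the labels do not say which of the study's transgenic lines was hybridized. The methods speak of pooled cRNA. The study counts biological replicates for qPCR on RNA of the same shoots, but does not say whether the 3 arrays of a group came from separate plants. Here n therefore counts arrays, and the p-values measure only the spread between arrays, which may be technical.

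*OsNAC006* encodes a NAC protein. NAC proteins (named after NAM, ATAF and CUC) are a plant-specific family of transcription factors that bind DNA through a conserved domain near the N-terminus, while the C-terminal part of the protein is variable and regulates transcription. Many NAC genes of rice respond to drought, salinity or abscisic acid, and several of them alter tolerance to these stresses when they are overexpressed. Loss of *OsNAC006* is known to make rice plants more sensitive to drought and heat. The study named *OsNAC006* among the genes that differed between OE and Tainung 67 on these same arrays. The genotype difference is therefore given below as a description, with its standard error (SE) and no p-value, whereas the responses to NaCl and the interaction were tested. By qPCR on RNA of the same shoots, the study also reported lower mRNA of the gene in its overexpressing lines under both conditions. Those qPCR values were not analysed here.

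The 12 arrays carried 43734 spots each besides the controls. Their median spot signals ranged from 315.5 to 814.5 intensity units, their median local backgrounds from 44 to 50 units, and saturation was not flagged for any spot. By the scanner's record, replicates 1 and 3 of Tainung 67 shared slide 1 and those of OE shared slide 2, with both conditions on each. Replicate 2 of all 4 groups was on slide 3. Each slide had its own scan date entry, so between slides 1 and 2 the scan also went with the genotype. Replicates 1 and 3 of a group correlated at r = 0.9925 to 0.996 over the tested probes, and at r = 0.9649 to 0.9826 with replicate 2. None of the 8 shoot and root markers listed for a check of the tissue was paired with a probe, so the tissue label was not checked here, and the level of *OsERF106MZ* itself was not analysed here.

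The *OsNAC006* probe had a single spot on each array, which was well above background on 12 of 12 arrays and was neither saturated nor an outlier. In Tainung 67 under normal conditions, its median spot signal as scanned was 648, 1110.5 and 816 intensity units in replicates 1, 2 and 3. Tainung 67 with NaCl gave 732, 1166 and 714 units. The OE arrays were dimmer throughout. They gave 333.5, 456 and 275.5 units under normal conditions and 315, 581 and 303.5 units with NaCl. The brightest OE array, at 581 units, was therefore below the dimmest Tainung 67 array, at 648 units, before any correction. In each group the slide 3 array was the brightest. The local background around the spot was between 41 and 56 units, and the signal was between 4.92 and 25.91 times the background. The scanner software put the error of each processed signal at 10% to 10.1%.

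After background correction and quantile normalization, which gives all arrays the same distribution of signals, the level of *OsNAC006* in Tainung 67 was 9.72, 9.12 and 9.68 on the log2 scale under normal conditions. With NaCl it was 9.66, 9.39 and 9.56. In OE it was 8.57, 8.26 and 8.36 under normal conditions and 8.20, 8.40 and 8.26 with NaCl. Replicate 2 of Tainung 67 under normal conditions was the brightest of its group as scanned and the lowest after normalization, and its array had the highest median spot signal of all, 814.5 units. The group means were 9.54 ± 0.14 (SD, n = 3) in Tainung 67 with NaCl, 9.51 ± 0.34 in Tainung 67 under normal conditions, 8.40 ± 0.16 in OE under normal conditions and 8.29 ± 0.10 in OE with NaCl, in that order from high to low. The means of Tainung 67 differed by less than the SD of either group. Those of OE differed by 0.11, between the SDs of their groups, and their arrays overlapped. The step between the genotypes was wider than every SD. The lowest Tainung 67 array, at 9.12, exceeded the highest OE array, at 8.57, by 0.54.

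**Figure D1:**
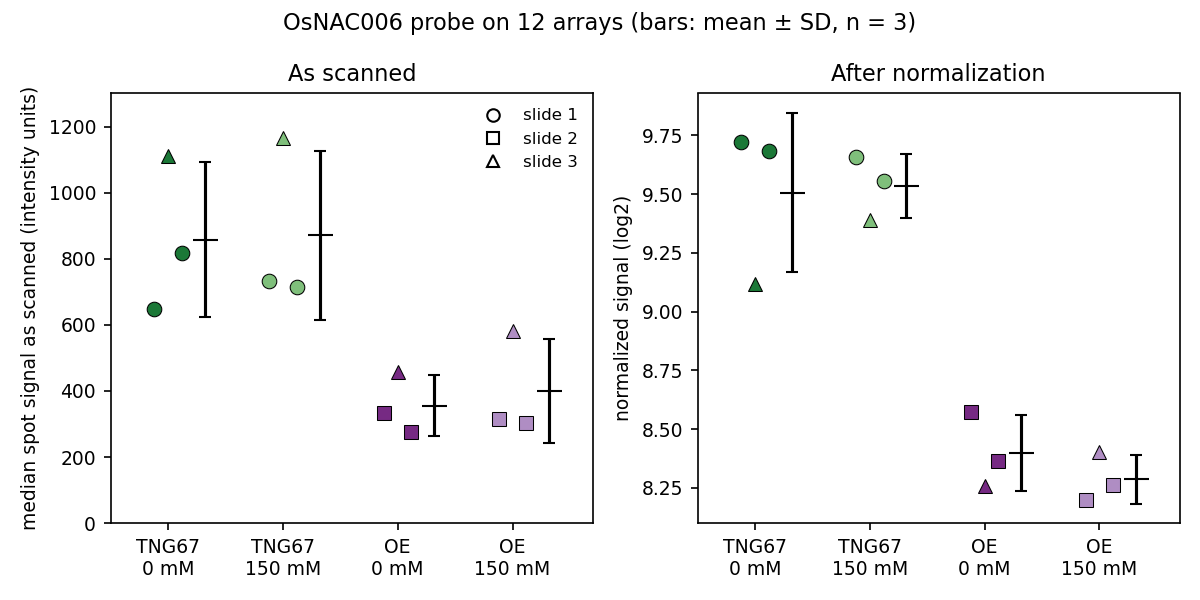
Level of the *OsNAC006* probe on each of the 12 arrays, as median spot signal in intensity units (left, linear axis) and as normalized log2 signal (right). Points are arrays, with the slide as the symbol, and bars are group means ± SD (n = 3); on both scales the 6 OE arrays lie below the 6 Tainung 67 arrays, from 275.5 to 581 units against 648 to 1166 units on the left.

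*OsNAC006* was lower in OE than in Tainung 67 under both conditions. Under normal conditions the log2 difference was -1.11 (SE 0.176), a 2.16-fold lower signal in OE. Under NaCl-treated conditions it was -1.25 (SE 0.176), a 2.38-fold lower signal. The 6 Tainung 67 arrays averaged 9.52 and the 6 OE arrays 8.34. A larger decrease was seen for 3.14% of the 37144 tested probes under normal conditions, 1166 probes, and for 1.35%, 501 probes, under NaCl-treated conditions. The 3 OE arrays lay below the 3 Tainung 67 arrays for 17.3% of the tested probes under normal conditions and for 12.3% under NaCl-treated conditions, and all 6 lay below all 6 for 2.31%, with *OsNAC006* among them in each case. Because the study chose the gene from this contrast, nothing is read from its place among these probes.

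The normalized values that the authors deposited, which are log2 signals centred on the median of each probe, placed the groups in the same order. They were 0.90, 0.27 and 0.83 for Tainung 67 under normal conditions and 0.87, 0.54 and 0.76 with NaCl. For OE they were -0.27, -0.56 and -0.46 under normal conditions and -0.55, -0.41 and -0.62 with NaCl. All Tainung 67 arrays were above 0, the median of the probe over the 12 arrays, and all OE arrays were below it.

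Salinity left the level of *OsNAC006* within the spread between arrays in both genotypes. In Tainung 67 the log2 response to NaCl was 0.029 (SE 0.176), with a 95% interval from -0.36 to 0.42 that runs from 0.78-fold to 1.33-fold, and the adjusted p of limma's moderated test was 0.93. In OE the response was -0.11 (SE 0.176), with an interval from -0.50 to 0.28 (0.71-fold to 1.21-fold) and an adjusted p of 0.683. Most probes moved further, since 95.2% of the tested probes had a larger absolute response in Tainung 67 and 83.4% in OE. For comparison, 8.93% of the tested probes changed more than 2-fold at an adjusted p under 0.05 with NaCl in Tainung 67, and 9.82% did so in OE. A response of 2-fold in either direction lay outside both intervals, and responses inside them could not be told from 0 with 3 arrays a group.

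The interaction asks whether the genotype difference changed with NaCl. For *OsNAC006* it was -0.14 on the log2 scale (SE 0.248, 95% interval -0.69 to 0.41, limma adjusted p = 0.962). The genotype difference with NaCl was thus larger than that under normal conditions by less than its error, and an interaction of up to 1.61-fold in the direction of a larger difference lay within the interval. By the same test 0.0942% of the tested probes, 35 probes, had an interaction beyond 2-fold. Leaving out any array other than replicate 2 of Tainung 67 at 0 mM moved this count by over 1.5 times, to between 3 (without replicate 3 of OE at 0 mM) and 114 (without replicate 2 of Tainung 67 at 150 mM). The genotype difference under normal conditions and the NaCl response in Tainung 67 are measured against the same 3 arrays, so they are not independent of each other.

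**Figure D2:**
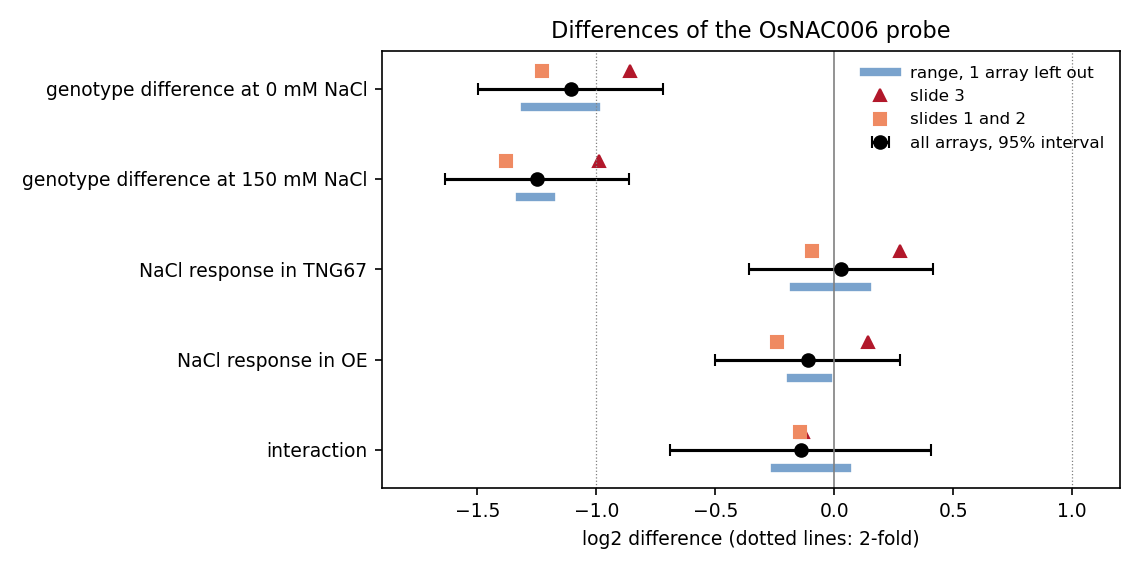
Log2 differences of the *OsNAC006* probe for the 2 genotype differences (OE minus Tainung 67), the 2 NaCl responses (150 minus 0 mM) and the interaction. Black points and bars are the estimates over all arrays with 95% intervals, blue bars the range with 1 array left out, squares slides 1 and 2 and triangles slide 3, and dotted lines mark 2-fold; the genotype differences lie between -1.38 and -0.86 on every set of slides, and the NaCl responses lie on both sides of 0.

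Only slide 3 held both genotypes, with 1 array for each group. On it the difference was -0.86 under normal conditions and -0.99 with NaCl, both under 2-fold. Between slides 1 and 2, which hold 1 genotype each, it was -1.23 and -1.38. On these 2 slides genotype, slide and scan cannot be told apart. OE was thus lower on both sets of slides. The difference was smaller on slide 3, where both genotypes shared a slide, but this rests on 1 array for each group and was not tested. The responses to NaCl can be compared within every slide. In Tainung 67 the response was -0.094 on slide 1 and 0.28 on slide 3. In OE it was -0.24 on slide 2 and 0.14 on slide 3. In both genotypes the sign of the response thus differed between slide 3, with 1 array for each group, and the other slide. Slide 3 holds replicate 2 of every group, so slide and replicate cannot be told apart, and this difference was not tested. The interaction was -0.13 on slide 3 and -0.145 on the other slides.

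The arrays of a group agreed as closely for *OsNAC006* as for most probes. Its SD between arrays within groups was 0.206 on the log2 scale, against a median of 0.265 over the tested probes, and 31.9% of the probes had a smaller one. The array farthest from its group mean was replicate 2 of Tainung 67 under normal conditions, 0.39 below it. The other slide 3 arrays deviated by -0.145 in Tainung 67 with NaCl, by -0.14 in OE under normal conditions and by 0.12 in OE with NaCl. Of the variation of the probe over the 12 arrays, measured as sums of squares, 92% lay between the genotypes, 0.113% between the NaCl conditions, 0.327% in the interaction and 7.51% between arrays within groups. The median share between the genotypes was 10.8% over 37085 probes without missing values. Because the study chose the gene from the genotype contrast on these arrays, a large share was set in advance and nothing is read from it. The share between the genotypes also holds any difference between slides 1 and 2.

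A set of 215 probes was lower in OE by more than 2-fold at an adjusted p under 0.05 under both conditions, which is 0.579% of the tested probes. *OsNAC006* was 1 of them, and its place in the set is a description, since the study chose it from this contrast. It was not in the set with slide as a fixed block, where its differences were -0.853 and -0.993, nor as a random block, where they were -0.955 and -1.1 and the first was under 2-fold. Nor was it in the set with replicates 1 and 3 averaged or with the methods' t-test, which left 9 probes and 1 probe. The methods of the study also name limma, so the last of these alternatives may not repeat the study's own calls. The study itself reported the gene as lower in OE under both conditions. The decrease of *OsNAC006* was among the smaller ones of this set. The mean of its differences under normal and NaCl-treated conditions was -1.18, against a median of -1.48 in the set, and 187 of the probes had a larger decrease. Its response to NaCl was also small for the set. The larger of its absolute NaCl responses in the 2 genotypes was 0.11 on the log2 scale, while the median of that measure was 0.64 and 6 probes had a smaller value. In 100 of the 215 probes (46.5%), NaCl changed the signal by less than 1.5-fold in both genotypes, against 59.6% of all tested probes. A NaCl response or an interaction passed in 34 of them (15.8%), against 13.8% of all tested probes, and *OsNAC006* was among the 181 in which neither passed. The size of this set depended on single arrays. It was 122, 126, 130 and 133 probes without replicate 1 or 3 of Tainung 67 under normal conditions, replicate 3 of OE under normal conditions or replicate 1 of Tainung 67 with NaCl, 141 and 142 without replicate 1 or 3 of OE with NaCl, and 437 without replicate 2 of Tainung 67 with NaCl.

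**Figure D3:**
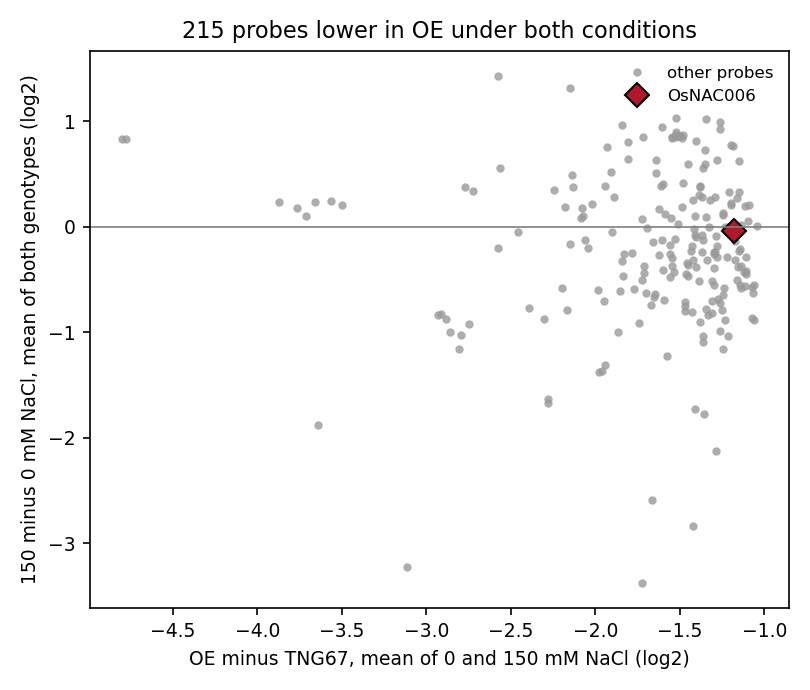
Mean genotype difference (OE minus Tainung 67 over both conditions, log2, horizontal) against mean NaCl response (150 minus 0 mM over both genotypes, log2, vertical) for the 215 probes lower in OE under both conditions. Each grey point is a probe, and the red diamond is *OsNAC006*, which sits near the right edge at -1.18 and close to 0 on the vertical axis.

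The genes with the pattern most like that of *OsNAC006* were ranked by Pearson's r over the 12 arrays, which includes the step between the genotypes. Only the 777 probes that were paired with a locus and well above background on all arrays could be named, and these pairings come from a list of genes that differed between the genotypes on these arrays, so a genotype step in the named genes is not a finding. Over all 37143 other probes, r ranged from -0.849 at the first percentile to 0.888 at the 99th, and 292 probes (0.786%) had r above 0.9. The arrays share slides and genotype, so r is given without a test.

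LOC_Os03g05870 had the highest r of all probes, 0.989. Its log2 levels were 9.16, 8.20 and 9.46 in Tainung 67 under normal conditions and 9.50, 8.57 and 8.87 with NaCl. In OE they were 6.96, 6.57 and 6.29, and 5.72, 6.55 and 6.20. Like *OsNAC006*, it dipped in replicate 2 of Tainung 67 under both conditions, and its deviations from the group means correlated with those of *OsNAC006* at r = 0.886. Its genotype differences were -2.33 and -2.82, and its NaCl responses were 0.042 in Tainung 67 and -0.45 in OE.

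The next named genes were LOC_Os05g11810 with r = 0.982, LOC_Os03g37878 with r = 0.974, LOC_Os04g01140 with r = 0.968 and LOC_Os04g39864 with r = 0.96, at ranks 5, 8, 14 and 20 among all probes. Each of them was lower in OE under both conditions. The differences were -2.06 and -2.1 for LOC_Os05g11810, -2.03 and -2.26 for LOC_Os03g37878, and -1.30 and -1.43 for LOC_Os04g01140. LOC_Os04g39864 was lower by 1.51 and 2.17 on the log2 scale. The correlation of the deviations within groups was 0.873 for LOC_Os05g11810, and between 0.578 and 0.64 for the other 3 genes. The last gene also had the largest NaCl response of the 5, -0.65 in OE, whereas the response in Tainung 67 was 0.0015. The unnamed probes CUST_28053_Rice4x44kGene (r = 0.989) and CUST_41717_Rice4x44kGene (r = 0.986) ranked just below LOC_Os03g05870.

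The opposite pattern was less common, with r under -0.9 for 149 probes (0.401%). The named genes with the lowest r were LOC_Os02g42330 and LOC_Os03g59550, both at -0.954, and LOC_Os04g53930 at -0.948. LOC_Os02g42330 was between 12.51 and 12.68 on the 6 Tainung 67 arrays and between 13.36 and 13.71 on the 6 OE arrays, with differences of 0.99 and 1.05. Its arrays separated by genotype as those of *OsNAC006* did, in the other direction. LOC_Os03g59550 was higher in OE by 1.12 under normal conditions and by 1.58 with NaCl, and LOC_Os04g53930 by 1.59 and 1.56. Within groups the deviations of these 3 genes correlated with those of *OsNAC006* at -0.169, -0.64 and -0.464, weaker than for LOC_Os03g05870.

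**Figure D4:**
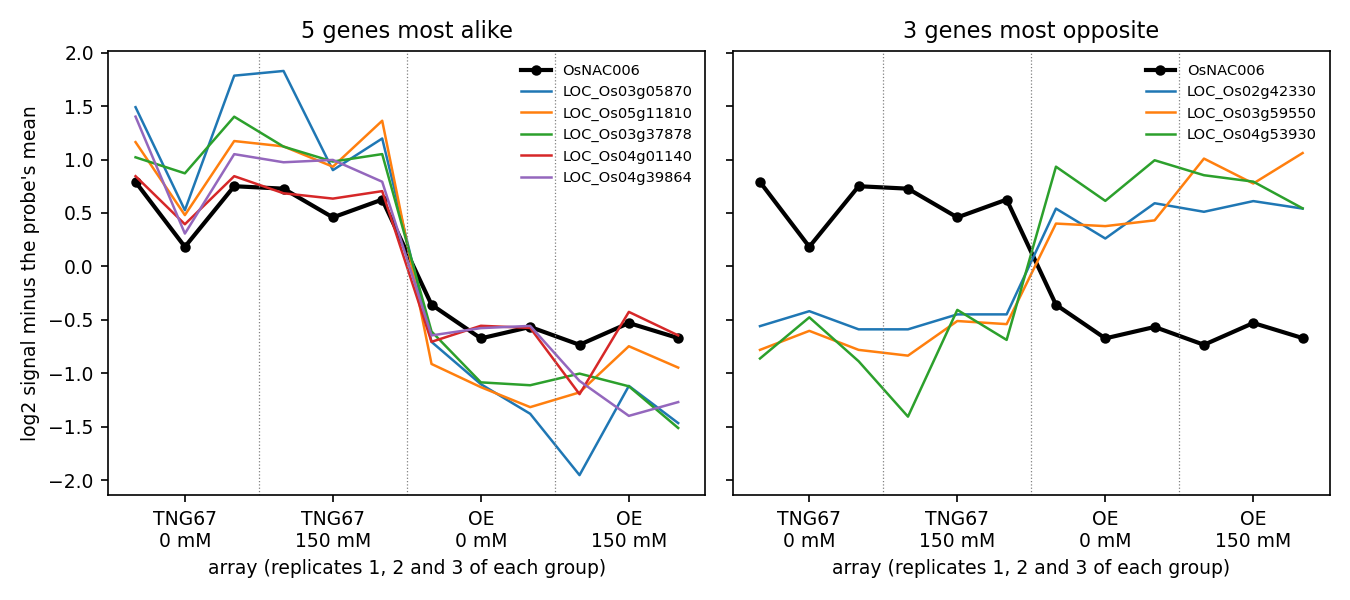
Normalized log2 signal less the mean of each probe on the 12 arrays, for *OsNAC006* (black) with the 5 named genes most alike (left) and the 3 most opposite (right). Replicates 1, 2 and 3 of each group stand side by side and the lines only join the points of a gene; *OsNAC006* has a smaller step between the genotypes than all 5 genes on the left.

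Of 106 rice NAC loci listed for comparison, 3 besides *OsNAC006* were paired with a probe, and all 3 were tested. They are *OsNAP* (LOC_Os03g21060), which is associated with leaf senescence and abscisic acid, *OMTN1* (LOC_Os02g36880), a target of the microRNA miR164, and LOC_Os02g41450. The pairing comes from the study's list of genes that differed between the genotypes, so these genes are not an independent sample of the family. Each of them responded to NaCl in at least 1 genotype. With replicates 1 and 3 averaged, or with the methods' t-test, only the response of *OMTN1* in Tainung 67 passed, and the other 3 responses called here were lost. In Tainung 67, 1 gene rose and 1 fell, against 4.96% and 3.97% of all tested probes. In OE, 2 rose and none fell, against 6.18% and 3.64%. The median log2 response of the 3 genes was 0.94 in Tainung 67 and 1.22 in OE, against -0.018 and -0.059 over all tested probes.

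*OMTN1* rose with NaCl in both genotypes. Its log2 level in Tainung 67 was 6.68, 6.99 and 6.62 under normal conditions and 8.72, 9.38 and 8.50 with NaCl. In OE it went from 7.74, 7.73 and 8.06 to 9.56, 8.51 and 9.59. The levels with and without NaCl did not overlap in either genotype. The response was 2.1 (SE 0.302, limma adjusted p = 0.00127) in Tainung 67 and 1.38 (SE 0.302, adjusted p = 0.00763) in OE.

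*OsNAP* rose with NaCl in OE, where it went from 7.35, 7.93 and 7.14 to 9.05, 8.78 and 8.25. In Tainung 67 it was 6.66, 6.98 and 6.55 under normal conditions and 7.63, 8.38 and 6.99 with NaCl. The response was 1.22 (SE 0.341, limma adjusted p = 0.0234) in OE and 0.94 (SE 0.341, adjusted p = 0.0716) in Tainung 67. The 2 responses were not shown to differ, with an interaction of 0.28 (SE 0.483, adjusted p = 0.959). The call in OE was lost without replicate 1 or 3 of OE under normal conditions or replicate 1 or 2 of OE with NaCl. Without replicate 3 of Tainung 67 with NaCl, the response in Tainung 67 passed as well, at 1.28 (adjusted p = 0.0257).

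LOC_Os02g41450 fell with NaCl in Tainung 67, from 9.07, 8.32 and 8.76 to 7.45, 6.33 and 7.09. In OE it was 8.11, 7.03 and 7.49 under normal conditions and 7.22, 6.49 and 6.67 with NaCl. The response was -1.76 (SE 0.349, limma adjusted p = 0.00607) in Tainung 67 and -0.75 (SE 0.349, adjusted p = 0.142) in OE, where the groups overlapped. The interaction was 1.01 (SE 0.494, adjusted p = 0.626).

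The genotype differences of these 3 genes varied in direction. At 0 mM NaCl they were 0.74 (SE 0.341) for *OsNAP*, 1.08 (SE 0.302) for *OMTN1* and -1.18 (SE 0.349) for LOC_Os02g41450. At 150 mM NaCl they were 1.02, 0.36 and -0.16, with the same SEs. With limma none of the 3 passed at 0 mM, where 4.36% of all tested probes did, or at 150 mM, where 3.35% did. At 0 mM the limma adjusted p was just above the cutoff for *OMTN1* (0.0506) and LOC_Os02g41450 (0.0614), and 0.205 for *OsNAP*. The count at an unadjusted p under 0.05 was 2 at 0 mM and 1 at 150 mM, and the methods' t-test called none of the 3 at either concentration. Of the 37144 tested probes, 9345 had an unadjusted p under 0.05 with limma at 0 mM and 8306 at 150 mM. With the replicate number as a block, LOC_Os02g41450 passed at 0 mM and *OsNAP* at 150 mM, with the same differences and SEs of 0.127 and 0.212. None of the 3 had an interaction that passed, and none had one at an unadjusted p under 0.05, where 3168 of all tested probes did. Over the 12 arrays the levels of *OsNAP*, *OMTN1* and LOC_Os02g41450 correlated with that of *OsNAC006* at r = -0.619, -0.407 and 0.465, all between the first and the 99th percentile of the probes.

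**Figure D5:**
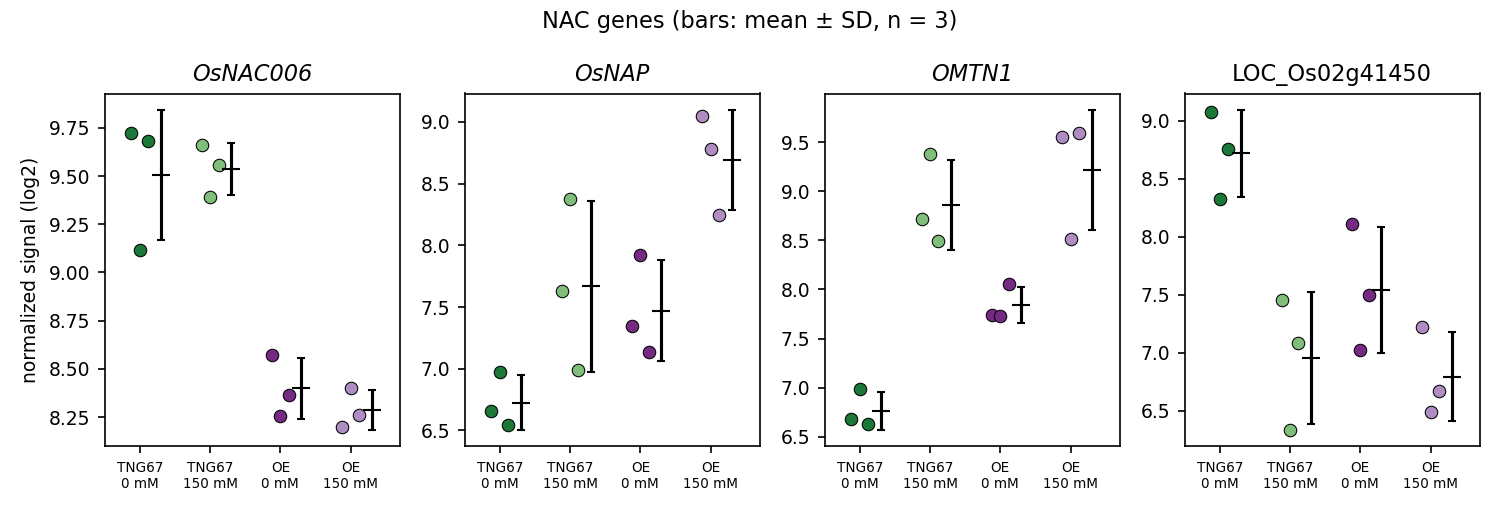
Normalized log2 signal of the 4 NAC genes on each array, with a panel and a vertical axis of its own for each gene. Points are arrays and bars are group means ± SD (n = 3); the groups of *OsNAC006* separate by genotype, and those of *OMTN1* separate by NaCl within each genotype.

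The study followed other stress-related genes together with *OsNAC006*, and 3 of them, without *OsMAIF1*, are described here. They are *OsABI5* (LOC_Os01g64000), a bZIP factor of abscisic acid signalling, *OsHOX24* (LOC_Os02g43330), a homeodomain-leucine zipper factor, and *OsSRO1c* (LOC_Os03g12820), a regulator of stress tolerance. These genes rose with NaCl in both genotypes, by 1.89 and 2.73 for *OsABI5*, 5.97 and 5.51 for *OsHOX24* and 4.64 and 4.48 for *OsSRO1c* on the log2 scale in Tainung 67 and OE, with limma adjusted p between 0.00029 and 0.0198. In Tainung 67 at 0 mM NaCl, *OsABI5* and *OsHOX24* were each well above background on only 2 of 3 arrays, so their responses there start from a dim signal. The genotype differences of the 3 genes are not described here.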

How the data were processed

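RNA from Tainung 67 and OE shoots at 0 or 150 mM NaCl was hybridized to 12 single-dye Agilent arrays. Groups and replicate numbers were taken from the titles, since the OE arrays at 0 mM NaCl all have 1 replicate number in their source names. The authors deposited Agilent Feature Extraction 10.7.1.1 output, with spot signal and local background as intensity, and a table of normalized log2 values. By comparison with the scanner files, that table holds the log2 processed signal after an offset per array and the probe's median over the arrays were subtracted, and 99.93% to 99.96% of the probes fit this within 0.01.

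Median spot signals were corrected with limma 3.58.1 in R 4.3.3 (normexp, offset 0, median local background). Control and outlier spots were left out, arrays were quantile-normalized and spots of a probe averaged. A probe was tested when at least 50% of its spots were well above background on at least 3 arrays (37144 of 42477). A mean per group was fitted (lmFit, eBayes), and the call needed an absolute log2 change above 1 and a p under 0.05 after Benjamini-Hochberg adjustment over all tested probes. Adjusted p-values are from this fit unless another is named. The methods of the study name limma too, but the alternative named after them was run without limma's moderation. The code of the fit was run on simulated data with 200 changed probes. The simulated arrays were independent, so this could not show the effect of shared slides or shared samples.

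Deviations of arrays with the same replicate number from their group means correlated at 0.172 to 0.681 in every comparison, which meets the rule set for paired numbers. The reported fit has no block, and a replicate block was tried as an alternative. The SE of the *OsNAC006* NaCl responses was 0.176 without a block, 0.153 with the replicate block and 0.252 with replicates 1 and 3 averaged. For the interaction it was 0.248, 0.216 and 0.356. The intervals given here are those without a block, and they would be wider if replicates 1 and 3 were not separate samples. The correlation within slides was estimated at 0.53 with limma. Slide 3 holds replicate 2 of every group, so number and slide cannot be told apart.

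Loci came from the study's list of differing genes (1182 probes, 1164 tested). *OsNAC006*, the NAC list, the genes ranked by r (the 5 highest and 3 lowest with a locus) and the 3 other genes were chosen with earlier results of these data known. Of the NAC list, 1 locus not certain to be a NAC gene was left out. No sequence is shown.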

Additional observations from a re-analysis of the deposited data

How the results depend on the processing

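*OsNAC006* was lower in OE in 26 of 26 alternatives at 0 mM NaCl and in 26 of 26 at 150 mM. Since all 6 OE arrays lay below all 6 Tainung 67 arrays, refits of the same arrays could hardly change this sign. The difference was under 2-fold in 3 alternatives at 0 mM and in 2 at 150 mM. The differences were -0.853 and -0.993 with slide as a fixed block, -0.955 and -1.1 as a random block, and -0.858 and -0.988 within slide 3, chosen after seeing the data. With 1 array left out they ranged from -1.3 to -1 at 0 mM and from -1.32 to -1.19 at 150 mM. With the replicate block they were -1.11 and -1.25 (SE 0.153), and among the 4 NAC genes the block changed only the calls of LOC_Os02g41450 at 0 mM and *OsNAP* at 150 mM.

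In 67 planned refits of the NaCl responses and the interaction, *OsNAC006* passed in 0 and the sign changed in 3. The response in Tainung 67 was -0.167 without replicate 2 of Tainung 67 at 0 mM and -0.0329 without replicate 1 of Tainung 67 at 150 mM. The interaction was 0.055 without the first of these arrays. With 1 array left out, the response ranged from -0.167 to 0.137 in Tainung 67 and from -0.182 to -0.0244 in OE, and the interaction from -0.248 to 0.055. The adjusted p ranged over all tested alternatives from 0.468 to 0.968, from 0.493 to 0.95 and from 0.717 to 1. Within slide 3 the responses were 0.275 and 0.144. As scanned, without normalization, the response in OE was 0.136 and the interaction 0.118. The cause of these shifts was not tested.

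The number of the 3 other NAC genes passing at 0 mM NaCl was 1 in place of 0 with signals scaled to the 75th percentile, with the authors' normalized values, with only probes above background on all 12 arrays, with slide as a random block, with the replicate block and with only the groups compared. The gene was LOC_Os02g41450 with the random slide block and the replicate block, and *OMTN1* with the others. At 150 mM the number passing was 1 with the replicate block. For the NaCl response it was 1 in Tainung 67 (*OMTN1*) and 0 in OE, in place of 2 and 2, with replicates 1 and 3 averaged and with the methods' t-test. With 1 array left out, the counts ranged from 0 to 2 and 0 to 1 for the genotype differences, 2 to 3 and 1 to 2 for the NaCl responses in Tainung 67 and OE, and 0 to 0 for the interaction.

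For the genotype differences at 0 and 150 mM NaCl 1618 and 1244 probes passed, against 177 and 74 with replicates 1 and 3 averaged and 338 and 11 with the methods' t-test, while 744 to 2081 and 689 to 2605 passed with 1 array left out. At 0 mM, 946 passed with slide as a fixed block, and at 150 mM, 638 passed with only the groups compared. For the NaCl responses in Tainung 67 and OE they were 3318 and 3649, against 955 and 1020 with averaged replicates and 952 and 2791 with the t-test. For the interaction they were 35, against 3 to 114 with 1 array left out, 0 with averaged replicates, 64 with the replicate block, 217 with slide as a fixed block and 291 as a random block. The 215 probes lower under both conditions became 136 with a normexp offset of 50, 9 with averaged replicates and 1 with the t-test.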
